A study of Mus musculus with 64 samples.

Results

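The cell cycle genes examined here are 35 genes that dividing cells switch on in turn, 16 of S phase and 19 of G2 and M phase, read one cell at a time in 64 cells sorted from mouse teeth. They were taken by symbol from a fixed list, and all 35 were found among the 24530 genes of the count table. The cells came from XLacZ4 mice, a reporter line in which the lacZ transgene gives cells beta-galactosidase activity, and 32 were taken from molars and 32 from incisors. They were sorted one by one for staining with FDG, a beta-galactosidase substrate that becomes fluorescent, and are all labelled pericytes, the support cells on the wall of small vessels. The sources used here give no age, sex or treatment, and do not say which cell types the transgene marks. Because no animal is named for any cell, a tissue stands for 1 sample, cells are not replicates, and no test between groups of cells was made.

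In S phase a cell copies its DNA: the MCM proteins unwind it, PCNA clamps the polymerases to it, and enzymes such as ribonucleotide reductase and thymidylate synthase supply the nucleotides. In G2 and M phase, CDK1 with its cyclins drives the cell into mitosis, the Aurora and Polo-like kinases build the spindle, and the anaphase-promoting complex with CDC20 ends it by marking cyclin B and other proteins for destruction. Most cells of adult tissue rest outside this cycle. Tissue macrophages can renew themselves by division in place, and pericytes divide mainly when vessels grow or are repaired.

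The cells held 514492 to 3171734 read counts and 922 to 4213 genes with a read. Cells with at least 500 CPM (counts per 1000000 counts of the cell) of the pericyte gene Rgs5 and 0 reads of Csf1r, the macrophage growth factor receptor gene, are called mural-like here, after the mural cells of vessels, which comprise pericytes and smooth muscle. There were 15 of them, 9 from molars and 6 from incisors. Cells with at least 1 read of Csf1r and less than 500 CPM of Rgs5 are called macrophages, and there were 47, 22 from molars and 25 from incisors. The label pericyte thus went against most of the cells. Of 10 macrophage markers, the macrophages read a median of 10 and the mural-like cells a median of 0. Of 10 mural markers, the mural-like cells read a median of 7 and the macrophages a median of 1. Molar cell 10 and incisor cell 13 fell in neither class, and both were kept in values over all cells and over tissues. Molar cell 10 read 4 of 4 dental epithelium markers, 0 of the 10 macrophage markers and 1 of the 10 mural markers. Incisor cell 13 had both class genes, at 589 CPM of Csf1r and 2301 CPM of Rgs5, and whether it was 1 cell was not tested.

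Reads of cell cycle genes were gathered in few cells. A cell was called cycling when at least 8 of the 16 S genes or at least 10 of the 19 G2 and M genes had a read, and 9 of 64 cells met this (14.1%, exact Clopper-Pearson 95% interval 6.64 to 25.02%). They comprised 7 of 47 macrophages (14.9%, 6.20 to 28.3%) and 2 of 15 mural-like cells (13.3%, 1.66 to 40.5%), and the intervals of both classes overlap over most of their width. All intervals cover counting error only. The median cell read 2 S genes and 1 G2 and M gene. Of the 64 cells, 5 read none of the 35 genes, 6 read no S gene and 27 read no G2 and M gene. Thinning every cell to a common number of reads that 57 of the 64 reach, which leaves out 7 shallower cells, kept all 9 calls and their phases.

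By tissue, the molars gave 4 called cells of 32 (12.5%, 3.51 to 28.99%). The incisors gave 5 of 32 (15.6%, 5.28 to 32.8%). Among macrophages these were 4 of 22 in molars (18.2%, 5.19 to 40.3%) and 3 of 25 in incisors (12%, 2.55 to 31.2%). Both mural-like cells came from incisors, 2 of 6 (33.3%, 4.33 to 77.7%), against 0 of 9 in molars, which allows a share of up to 33.3%. These intervals overlap in each pair.

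**Figure D1:**
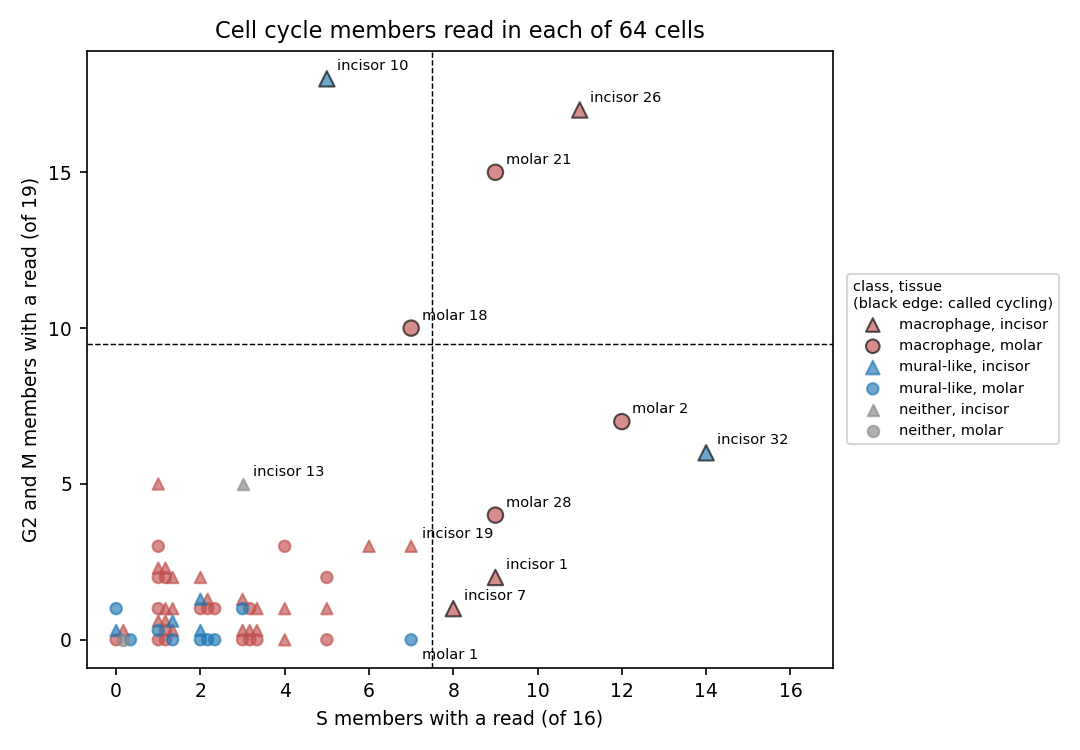
Number of S genes (horizontal axis, of 16) and of G2 and M genes (vertical axis, of 19) with a read in each of the 64 cells, coloured by class and shaped by tissue; dashed lines are the cuts, and points on the same place are shifted slightly. The 9 called cells, with black edges, lie beyond a line, and the other 55 cells read at most 7 S genes and at most 5 G2 and M genes.

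The 9 cells spread over the phases. Only the S cut was met by 5 cells: macrophages from molars (cells 2 and 28) and incisors (cells 1 and 7), and mural-like incisor cell 32. Only the G2 and M cut was met by 2, molar macrophage 18 and mural-like incisor cell 10. Macrophages molar 21 and incisor 26 met both. Of all 14282 genes read in any cell, 24.8% had a read in molar 2, 24.2% in molar 18, 23.3% in molar 21, 22.2% in molar 28, 23.5% in incisor 1 and 18.4% in incisor 7. The shares for the other called cells stand beside their counts. Because the call rests on the 35 genes, their levels in the called cells are given as a description.

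Mural-like incisor cell 32 read the most S genes of all cells. It read 14 of 16 S genes, all with at least 5 reads, at a summed 9131 CPM, and 6 of 19 G2 and M genes at 549 CPM. Genes with a read made up 27.2% of the 14282 genes read in any cell in this cell, against 87.5% of the S genes. All 6 MCM subunit genes were read, from 633 reads of Mcm3 to 8865 reads of Mcm6. Mcm6 (chr1:128331590-128359664, minus strand, mm10) had reads in 18 cells, and this cell gave 51.7% of them. It also read Pcna (3409 reads), both subunit genes of ribonucleotide reductase (Rrm1, 451 reads, and Rrm2, 2383 reads), Tyms for thymidylate synthase (340 reads) and the replication licensing gene Cdt1 (891 reads). Of the mitotic genes, Ccna2, the cyclin that acts from S phase onward, had 702 reads (226 CPM) and Cdk1 had 455. By CPM, Ccna2 stood higher in molar 26, which was not called, at 302 and in incisor 26 at 244. Mki67, Ccnb1, Ccnb2, Plk1 and Cdc20 had 0 reads. Its Rgs5 stood at 21040 CPM and its Csf1r at 0.

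Mural-like incisor cell 10 read the most G2 and M genes of all cells. It read 18 of 19 G2 and M genes at a summed 15280 CPM, against 25.1% of all genes read, and 5 of 16 S genes at 1047 CPM. Only Bub1, a spindle checkpoint kinase gene, had 0 reads. Ccnb1 and Ccnb2, the B cyclins, had 5431 and 4675 reads, Plk1, the Polo-like kinase gene, 2467, and Cdc20, the activator of the anaphase-promoting complex, 4039. None of the 6 MCM genes had a read. Rrm2, Tyms and Slbp, which binds histone mRNA, were the S genes with most reads here, at 621, 823 and 1394. Its Rgs5 stood at 14730 CPM and its Csf1r at 0. Summed over mural-like cells, the G2 and M genes came to 1138 CPM, and to 48.7 CPM without this cell. The S genes came to 1437 CPM, and to 766 CPM without incisor cell 32.

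Incisor macrophage 26 read 28 of the 35 genes, the most of all cells, 11 of S and 17 of G2 and M. Its total was 2053930 counts, and it had the most genes with a read, 4213, which is 29.5% of all genes read. Cdc20 had 3137 reads, Mki67, a marker of all cycling phases, 3045, and Cenpe, a kinetochore motor gene, 2252. Ccnb1 had 671 reads and Plk1 280. Molar macrophage 18 read fewer, 10 of 19, and among them were 4200 reads of Top2a, the topoisomerase gene that untangles chromosomes, 1652 of Cdk1 and 968 of Mki67. It had 0 reads of Ccnb1, Plk1 and Cdc20. Molar macrophage 21 read 15 G2 and M genes at lower levels, 11 of them with at least 5 reads, led by 650 reads of Mki67 and 285 of Cenpe, and Ccnb1, Plk1 and Cdc20 again had 0. Its balance between the lists was close, at 1127 CPM of S and 1186 CPM of G2 and M genes. Per kilobase of exon the order turned, to 321 for S and 161 for G2 and M, so its phase depends on the scale. The 8 other called cells kept the same leading list on both scales.

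Several of the G2 and M genes were held by few cells. Cdc20 (chr4:118432901-118437352, minus strand) had reads in 3 of 64 cells: 4039 in incisor 10, 3137 in incisor 26 and 1 in incisor 14. Ccnb1 had reads in 4 cells, 5431 in incisor 10, 671 in incisor 26, 41 in molar 4 and 1 in molar 9. Plk1 had reads in 4 cells, 2467 in incisor 10, 280 in incisor 26, 23 in incisor 15 and 15 in incisor 13. For each of the 3 genes, these same 2 called cells stood far above the rest. Top2a was read in 7 of the 9 called cells and in 3 other cells, with at most 44 reads in those 3. Aurka, the Aurora A kinase gene, had 6 reads in incisor 10 alone, and Bub1 26 reads in molar 18 and molar 21.

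The other spindle genes also had most of their reads in few cells, with some exceptions. Tpx2, which activates Aurora A on the spindle, was read in 5 cells, 4 of them called, from 94 reads in molar 21 to 4165 in incisor 10. Aurkb, for the kinase of the passenger complex, was read in 4 cells, with 1771 reads in incisor 10, 318 in incisor 26, 21 in incisor 13 and 1 in molar 21. Nusap1 and Hmmr, for microtubule-binding proteins, were each read in 7 cells, 5 of them called, with most reads in incisor 10 (733 and 2807). Ube2c, for an enzyme that passes ubiquitin to targets of the anaphase-promoting complex, was read in 9 cells, 4 of them called. Ccnb2 was read in 8 cells, 4 of them called. Molar 11 had 743 reads of Ube2c and molar 32 had 759 of Ccnb2 without being called. Bub1b, a spindle checkpoint gene, had 138 reads in all, over 7 cells, of which incisor 20 gave 64. Of the 35 genes, 31 reached a mean of 5 CPM, and Cdc6, Aurka, Bub1 and Bub1b did not.

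Of the S genes not yet named, Uhrf1, which keeps DNA methylation at the replication fork, was read in 10 cells, 6 of them called, with most reads in molar 11 (854). Cdt1 was read in 12 cells, 4 of them called, with most in incisor 4 (1437). Rrm1 was read in 12 cells, 7 of them called, with most in molar 25 (1078). The cell with the most reads was thus not a called one for each of these 3 genes. Cdc6 had 145 reads in molar 18 and 10 in 1 other cell.

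The 4 macrophages that met the S cut alone differed in which genes they read. Molar 2 read 12 of 16 S genes, among them all 6 MCM genes, and 7 G2 and M genes such as Top2a (587 reads) and Cenpf, of the kinetochore (510 reads). Molar 28 read 9, led by 2701 reads of Pola1, the DNA polymerase alpha gene. Incisor 1 read 9, led by 1884 reads of Pcna and 1846 of Mcm6, and had 977 reads of Cdk1. Incisor 7 read 8, 5 of them MCM genes, and its only G2 and M gene was Birc5, for survivin of the chromosomal passenger complex, at 472 reads. These 2 incisor cells, molar 18 and molar 28 lie within 1 gene of a cut. Outside, within 2 genes of a cut, were 3 cells: mural-like molar cell 1 with 7 S genes, and macrophages incisor 19 with 7 and incisor 20 with 6.

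**Figure D2:**
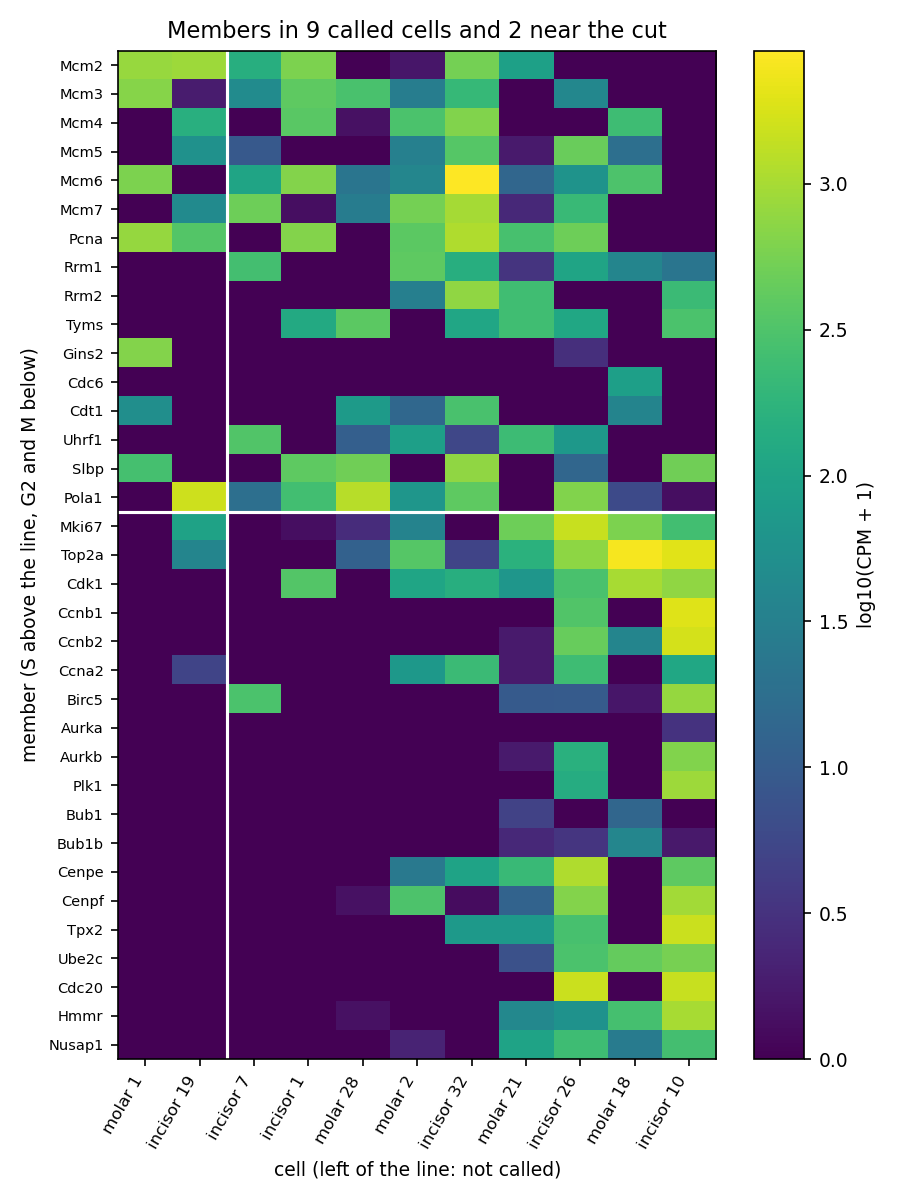
Level of the 35 genes (rows, S above the white line) in the 9 called cells and 2 cells just under the S cut (columns), as log10 of CPM plus 1. Incisor 10 fills 18 of the 19 lower rows and none of the 6 MCM rows, incisor 32 fills 14 of the 16 upper rows and 6 lower ones, and Ccnb1, Plk1 and Cdc20 are read in incisor 10 and incisor 26 only among these cells.

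Members that move together in the cycle are known to share promoter elements: E2F factors bind upstream of S genes, and the DREAM complex binds the cell cycle homology region (CHR) of mitotic genes, often beside CCAAT boxes bound by NF-Y. Promoters of 30 of the 35 genes were matched by symbol in the RefSeq table for GRCm38.p6. Aurkb, Ccna2, Gins2, Mcm4 and Tpx2 had no entry. Both strands of the 250 bases before the start, leaving out the 50 bases after it, were searched for E2F letters (TTTCCCGC, TTTCGCGC, TTTGCCGC or TTTGGCGC), the CHR letters TTTGAA and the letters CCAAT; matches may overlap. E2F letters were found in 6 of 14 S genes (Mcm5, Mcm6, Mcm7, Cdc6, Uhrf1 and Pola1) and 1 of 16 G2 and M genes (Cdk1), against 2.16% of all 27025 symbols. CHR letters were found in 6 of 16 G2 and M genes (Mki67, Top2a, Cdk1, Ccnb2, Ube2c and Cdc20) and 1 of 14 S genes (Mcm2), against 18.3% of all. CCAAT was found in 14 of 16 G2 and M and 11 of 14 S genes, against 37.5% of all. These shares were not matched for base composition. The 150 bases just before the RefSeq start of 4 genes named above are printed 5′ to 3′ on the gene's strand, with these letters in capitals. The GENCODE gene start differs. It lies inside the printed bases of Cdk1 (69352938), Cdc20 (118437352) and Ccnb1 (100786570), and outside those of Mcm6. In these 3 genes the bases after it, with the last letters in capitals, thus lie inside the gene by that annotation. The printed bases show an S gene with E2F letters alone beside CCAAT, a gene with all 3, and 2 other G2 and M genes with and without CHR letters. A missing match says only that these letters are not in the window. The positions of the printed bases in GRCm38.p6 are chr1:128359706-128359855 for Mcm6, chr10:69352913-69353062 for Cdk1, chr4:118437344-118437493 for Cdc20 and chr13:100786487-100786636 for Ccnb1, all on the minus strand.
Mcm6: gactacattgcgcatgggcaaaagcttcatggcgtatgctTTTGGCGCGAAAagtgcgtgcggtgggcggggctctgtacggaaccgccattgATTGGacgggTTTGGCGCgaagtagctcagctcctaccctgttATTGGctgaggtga
Cdk1: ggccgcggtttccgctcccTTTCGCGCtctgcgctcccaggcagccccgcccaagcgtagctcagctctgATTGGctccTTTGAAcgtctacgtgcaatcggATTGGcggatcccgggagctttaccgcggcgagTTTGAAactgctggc
Cdc20: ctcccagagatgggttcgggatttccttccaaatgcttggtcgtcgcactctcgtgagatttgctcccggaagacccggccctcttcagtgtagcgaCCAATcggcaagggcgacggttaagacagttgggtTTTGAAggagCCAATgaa
Ccnb1: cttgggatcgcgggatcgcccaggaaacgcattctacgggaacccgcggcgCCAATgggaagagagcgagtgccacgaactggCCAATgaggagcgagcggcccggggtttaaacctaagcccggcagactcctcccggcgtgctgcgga

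S genes were also read, one or a few at a time, outside the called cells, whereas G2 and M genes seldom were. The 9 called cells held 16.4% of all counts, 52.9% of the S reads and 92.9% of the G2 and M reads, shares that the call itself favours. The 55 cells not called read a median of 2 of 16 S genes and 1 of 19 G2 and M genes. Of the 14282 genes read in any cell, they read a median of 2524. The S genes had a read there in 119 gene and cell pairs, of which 68 had at least 100 reads. G2 and M genes had a read in 51 pairs, of which 9 had at least 100 reads and 25 fewer than 5. Pcna was the member read most widely, in 33 cells, of which 28 were not called, and Slbp followed with 25 cells, of which 20 were not called. Pcna also serves in DNA repair. All reads of Tyms fell in called cells, in 6 of them, at 230 to 872 reads, and 4 of the 5 cells with Rrm2 were called.

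Some isolated reads were high. Incisor macrophage 5 had 2380 reads of Mki67, 1069 CPM, the second most of all cells, with 1 S gene and no other G2 and M gene. Mural-like molar cell 1 had 7 S genes at a summed 3909 CPM, more than any called macrophage, with 2638 reads of Mcm2, 2526 of Pcna and 2064 of Gins2, a subunit of the replicative helicase, and 0 reads of every G2 and M gene. Molar macrophage 8 had 2524 reads of Mcm4 and no other MCM gene among its 3 S genes. Values of at least 500 reads outside the called cells numbered 35, of which 32 were of S genes. Mki67 was read in 15 cells, 7 of them called, and mural-like incisor 32 and macrophage incisor 7 were called with 0 reads of it.

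The MCM subunits, which work as a hexamer with equal parts of each, were mostly read in part. All 6 were read in molar 2 and incisor 32, and at least 5 in incisor 1, incisor 7 and incisor 19 too. In 8 cells 3 or 4 were read, in 20 cells 1 or 2, and in 31 cells none. Read numbers in 1 cell also differed widely between subunits, such as 1 read of Mcm2 against 905 of Mcm7 in molar 2. Smart-Seq2 copies few starting molecules of a gene many times, and how far that sets such gaps was not tested.

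**Figure D3:**
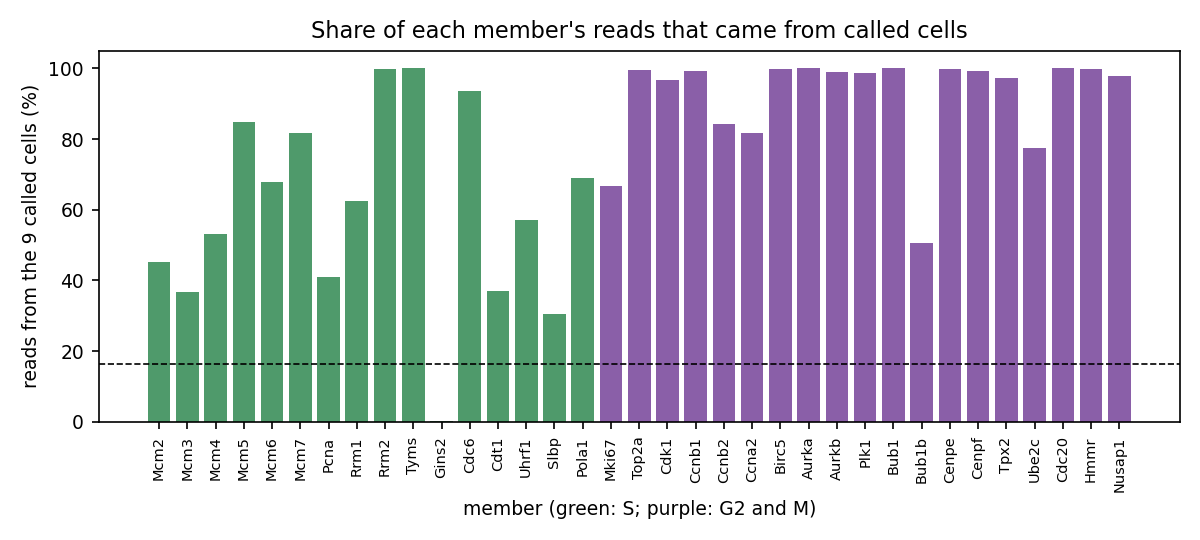
Percent of each gene's reads over the 64 cells that came from the 9 called cells (bars from 0; green S, purple G2 and M); the dashed line is these cells' share of all counts, 16.4%. Most G2 and M bars stand near 100, with Bub1b at 50.7 and Mki67 at 66.7, while S bars run from 0.160 for Gins2 to 100 for Tyms.

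**Figure D4:**
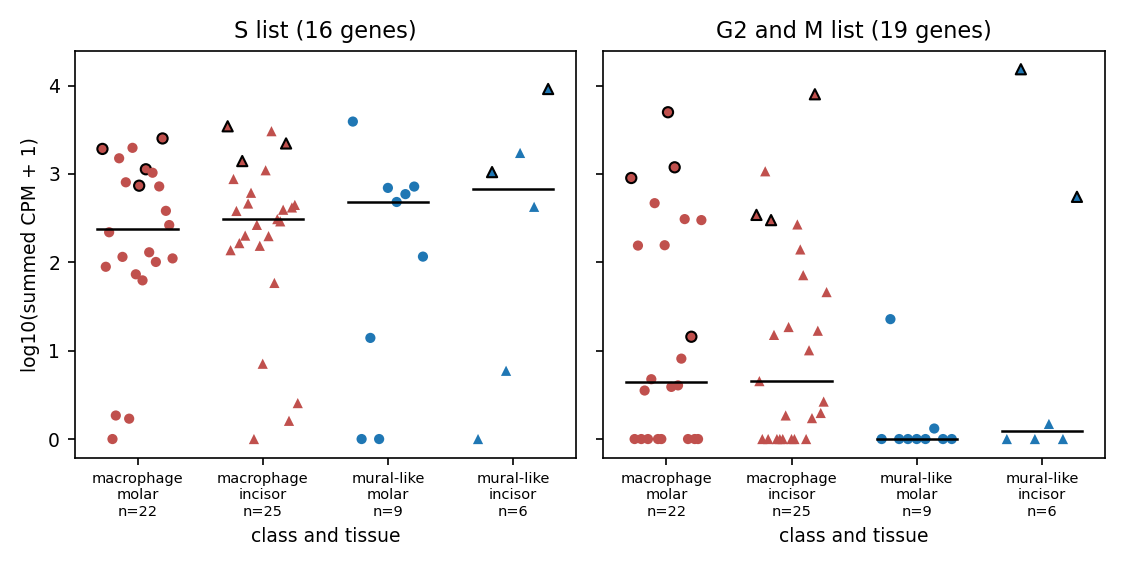
Summed CPM of the S genes (left) and of the G2 and M genes (right) in each cell, as log10 of CPM plus 1, by class and tissue; black lines are medians and black edges mark called cells. S levels of called and other cells overlap in the macrophages, and of the 9 molar mural-like cells 7 have no G2 and M read, molar 22 has 0.315 CPM and molar 4 has 21.7 CPM.

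The classes differed in their stray G2 and M reads. Of the 13 mural-like cells not called cycling, 10 read no G2 and M gene and the other 3 read 1 each, at a summed 1.31 CPM (exact Poisson interval 0.948 to 1.76). Of the 40 macrophages not called, 16 read none and the others 1 to 5, at a summed 87.3 CPM (85.0 to 89.7). Single cells gave much of both sums: without incisor 5 the macrophages stood at 50.4 CPM, and without molar 4 the mural-like cells at 0.0646 CPM, from 2 reads. After thinning, these macrophages read a median of 1 and the mural-like cells a median of 0. A list of 32 other G2 and M genes, described next, did not share the difference. Of its 15 genes measured in these cells, 6 were at least 2-fold higher in the mural-like sum and 7 lower. Among all 9435 measured genes the shares were 35.3% and 38.3%. The median log2 ratio of mural-like over macrophage was 0.09 for this list, against -0.04 over all genes. The Poisson intervals treat reads as independent molecules, which PCR copies are not, and leave out the spread between cells. Summed S reads stood at 742 CPM in these mural-like cells and 453 CPM in these macrophages, with molar cell 1 giving 12205 of the 24376 mural-like S reads and 410 CPM left without it.

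Cell cycle genes outside the 35 gave a reading of the same cells that the call did not use. Of 32 other G2 and M genes, among them the spindle motors Kif11 and Kif23 and the condensin genes Smc2 and Smc4, incisor 26 read 30, incisor 10 read 28, molar 18 read 23 and molar 21 read 22. Every other cell read at most 12, and the cells not called read a median of 3 and at most 9. The 4 cells that met the G2 and M cut thus stood apart in this list also. Of 30 other S genes, incisor 32 read 19, molar 2 and incisor 1 read 14 each, incisor 26 read 13 and molar 21 read 11. Incisor 10 read 10 and molar 18 read 8, though both met the G2 and M cut alone. Molar 28, which met the S cut alone, read 6. This list thus did not part the cells of the S cut from those of the G2 and M cut. Incisor 7 read 1, under the median of 2 of the cells not called, so its call rests on the 8 listed S genes alone. Incisor 19, which missed the call by 1 S gene, read 12.

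**Figure D5:**
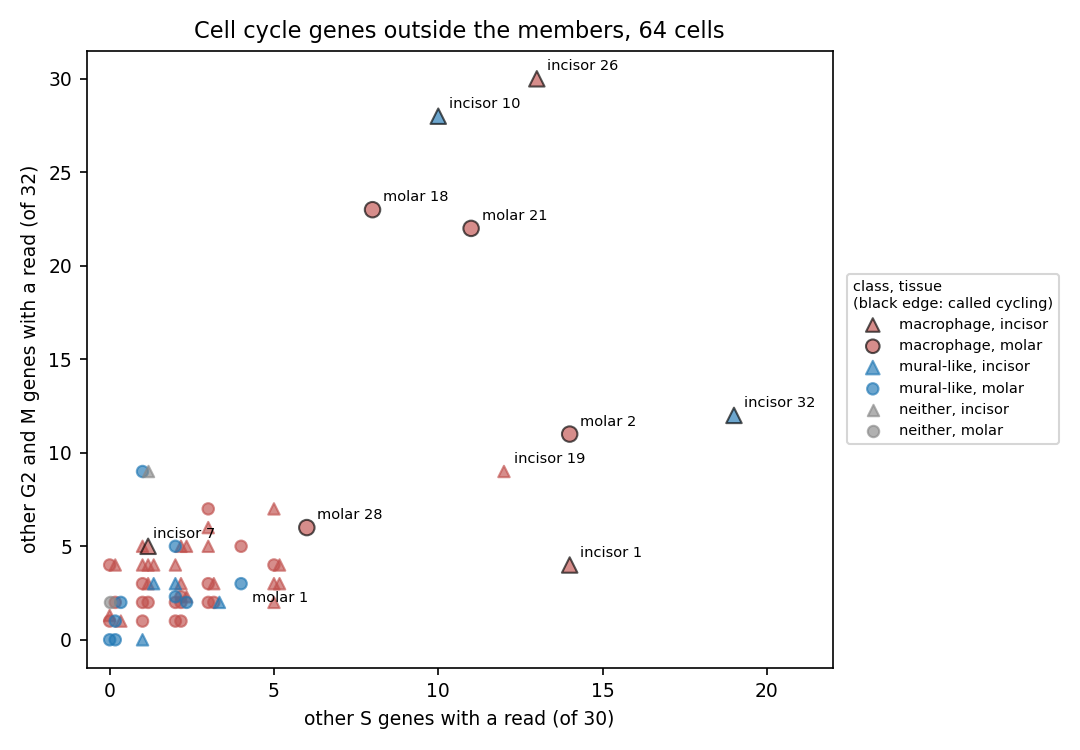
Number of other S genes (horizontal axis, of 30) and other G2 and M genes (vertical axis, of 32) with a read in each of the 64 cells, coloured by class and shaped by tissue, with black edges for called cells; points on the same place are shifted slightly. The 4 cells with at least 22 other G2 and M genes are those that met the G2 and M cut, while incisor 7 lies among the cells not called and incisor 19 among those called.

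Summed over the 7 called and the 40 other macrophages, 24 of 29 measured other G2 and M genes were at least 2-fold higher in the called ones and 0 at least 2-fold lower, where 25.5% of all 8470 measured genes were higher and 39.9% lower. Of the other S genes, 18 of 25 were at least 2-fold higher and 2 lower. Genes were measured where the mean of both sums was at least 5 CPM, so a gene that passes through the called cells alone has to be higher. The called macrophages also had more genes with a read, a median of 3353 against 2531, and of 3248 against 2481 after thinning, and its part in these counts was not tested. Stmn1, which destabilises microtubules, was read in 7 of 7 called macrophages at 0.767 to 1180 CPM and in 11 of 40 others, with sums of 406 and 45.6 CPM. Hmgb2, a chromatin protein gene, was read in 7 of 7 and in 36 of 40, with sums of 456 and 148 CPM. Cenpa, for the histone of centromeres, went the other way, in 3 of 7 and 18 of 40, with sums of 96.8 and 168 CPM. Stmn1 and Hmgb2 were also read in mural-like incisor 10 (1842 and 1711 CPM) and incisor 32 (826 and 162 CPM). Of the other S genes with most counts, Nasp, for a histone chaperone, had sums of 204 and 45.2 CPM (3 of 7 and 17 of 40 cells), Atad2 of 82.99 and 23.01 CPM (4 and 7 cells), and Rfc2, for a clamp loader subunit, of 69.5 and 62.4 CPM (5 and 8 cells). Of the replication-dependent histone genes, whose mRNA largely lacks the polyA tail that these libraries select, Hist1h2ae had sums of 174 and 5.50 CPM and Hist1h1e 115 and 16.4 CPM, while Hist1h2bc had 7.05 and 33.9 CPM. Near-identical copies in this family can share reads, so single histone genes are uncertain.

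Outside all the lists, the 10 genes with the largest difference in the share of cells with a read between called and other macrophages included Rfc5, a subunit of the clamp loader for PCNA, read in 5 of 7 against 1 of 40 cells (190 against 7.03 CPM). Also among them were Anapc5, a subunit of the anaphase-promoting complex, in 7 of 7 against 10 of 40 (421 against 94.4 CPM), Selenoh, a nuclear selenoprotein gene, in 6 against 3 (150 against 0.553 CPM), and the RNA-binding protein gene Lsm4 in 6 against 6 (138 against 39.1 CPM). The rest of the 10 genes were Bex3, Cic, Desi2, Diaph2, Epc1 and Zdhhc5. The CPM of Cic and Zdhhc5 was nearly the same in both groups (38.5 against 33.9 and 43.1 against 41.3), and that of Diaph2 was lower in the called cells (91.6 against 115). Anapc5, Selenoh, Lsm4 and Bex3 were read in both called mural-like cells too. Of the 13 mural-like cells not called, 10 read Anapc5, 10 Bex3, 7 Lsm4 and 1 Selenoh. These genes were chosen by this difference and serve as a description.

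Genes that act in G1, before S phase, were read in part of the called cells. Ccnd1, for cyclin D1, which opens the cycle with CDK4 and CDK6, was read in all 5 cells that met the S cut alone, at 17.7 to 444 CPM. In the 4 cells that met the G2 and M cut it stood at 0 in molar 21 and incisor 26, 0.611 CPM in molar 18 and 24.6 CPM in incisor 10. Of those 4 cells none had a read of Ccnd2 or Ccnd3, while incisor 1 had 540 and 231 CPM and incisor 32 had 167 and 998 CPM. E2f1, a transcription factor gene of the G1 to S step, stood at 1122 CPM in incisor 32, 325 in incisor 1, 106 in incisor 26 and 18.7 in molar 2, at 1 read in incisor 10, and at 0 in the other 4. E2f4 and Tfdp1, for a repressor E2F and the partner of E2F factors, were read in 4 and 6 of the 9 called cells and in 10 and 17 of the other 55. Cdk4 was read in all 9 called cells, at 0.891 to 698 CPM, and in 25 of the other 55.

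Outside the called cells, most measured G1 genes had a higher summed CPM in mural-like cells than in macrophages. Of 10 measured G1 genes, 7 were at least 2-fold higher in the mural-like sum, where 35.3% of all 9435 measured genes were higher. At least 2-fold lower were 0, against 38.3% of all. Genes were measured where the mean of both sums was at least 5 CPM. A gene that passes through the mural-like sum alone thus has to be higher. Ccnd3 was read in 6 of 13 mural-like cells (median 0, highest 945 CPM) and 1 of 40 macrophages (84.5 CPM). Ccnd2 was read in 7 of 13 (median 8.43, highest 1016 CPM) and 9 of 40 (median 0, highest 79.8 CPM), and Cdk4 in 9 of 13 (median 189, highest 1340 CPM) and 16 of 40 (median 0, highest 748 CPM). The ranges of both classes overlap from 0 upward for each gene. Cdk6 did not share the difference, with sums of 154 and 158 CPM. For Ccne1, Cdk2 and Cdk7 the higher mural-like sum came from 2 of 13 cells each. Macrophages with a read of these genes numbered 0, 7 and 12 of 40. Their sums were 89.7 against 0 CPM for Ccne1, 68.1 against 0.439 for Cdk2 and 45.7 against 0.602 for Cdk7. The mural-like cells were the deeper, with a median of 2670453 counts against 1400274, and read fewer genes after thinning, a median of 2220 against 2481.

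Among the inhibitors of cyclin-dependent kinases, Cdkn1a, for p21, was read in 8 of 9 called cells. It stood at 89.3 to 1898 CPM in the 7 called macrophages (median 245), against 0 to 3350 CPM in the 40 others (median 406), and the ranges overlap. It was at 635 CPM in mural-like incisor 32 and at 0 in mural-like incisor 10. Cdkn1c, for p57, and Cdkn2d, for p19, were read in a larger share of the mural-like cells: Cdkn1c in 8 of 15 (highest 1229 CPM) against 6 of 47 macrophages (highest 1251 CPM), and Cdkn2d in 8 of 15 (highest 940 CPM) against 4 of 47 (highest 22.9 CPM). Incisor 32 had 561 CPM of Cdkn1c, and the called macrophages at most 7.67 CPM. Cdkn2c, for p18, stood at 577 CPM in incisor 26 and 354 CPM in incisor 10, the 2 cells with Cdc20 and Ccnb1, and at 0 or 3.83 CPM in the other called cells.

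The macrophages called cycling read their class genes at levels within the range of the others. Csf1r, which defines the class, stood at 185 to 3669 CPM in the 7. The 9 other macrophage markers summed to 6246 to 19360 CPM (median 12990), within the 2926 to 27220 CPM (median 13910) of the other 40. Cx3cr1, a chemokine receptor gene of resident macrophages, was read in 7 of 7 at a summed 260 CPM and in 39 of 40 at 667 CPM. Lyve1 and Il1b, a vessel-associated macrophage gene and an inflammatory cytokine gene, were read in 5 and 6 of the 7, at 81.3 and 802 CPM, against 17 and 20 of the 40 at 320 and 375 CPM. Of the markers of other cells, those of lymphocytes had 0 reads in all macrophages. Acp5, an acid phosphatase gene of osteoclasts that macrophages also express, was read in 5 of the 7 and 28 of the 40, at 374 and 502 CPM. The other osteoclast markers were nearly absent, with Ctsk read in 0 of the 7 and 1 of the 40 and Oscar at 0 reads. Amelx, an enamel gene, was read in 1 and 7, at 23.6 and 16.5 CPM, and Ambn, another, in 2 and 2, at 0.150 and 10.2 CPM. Enam and Krt14, the other dental epithelium markers, were read in 0 macrophages. Their part in these results was not tested.

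Summed over tissues, S genes came to 726 CPM in molars and 1214 CPM in incisors, and G2 and M genes to 223 and 1163 CPM. The called cells gave 82.3% of the molar and 95.1% of the incisor G2 and M reads, and 70.6% of the incisor but 25.9% of the molar S reads, of which molar 1, not called, gave 12205 of 44346. Of the 19 G2 and M genes, 14 were at least 2-fold higher in the incisor sum and 0 lower, where 28.1% of all 9934 measured genes were higher and 22.8% lower. Their median log2 ratio of incisor over molar, with 1 CPM added to each sum, was 2.73 over the 16 measured genes, against 0.13 over all. It was 1.44, with 8 genes past 2-fold, without incisor 10, and 2 genes were past 2-fold without incisor 10, 26 and 32. Plk1 had 2785 reads in incisor cells and 0 in molar cells, at least 1015-fold higher in the incisor sum with the molar sum set at 3 counts. Incisor 10 gave 2467 of these reads, and without it the bound was 122-fold. Top2a had 82.1 CPM in molars and 128 CPM in incisors. Aurka, Bub1 and Bub1b were too low to be measured, at log2 ratios of 0.15, -0.51 and 0.12. Measured genes had a mean of both sums of at least 5 CPM. A gene that passes through the incisor sum alone thus has to be higher there, which favours a high median. Such genes were Cdc20 and Plk1 at 0 CPM in molars, Aurkb at 0.0164, Birc5 at 0.213 and Ccnb1 at 0.687.

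Of the 16 S genes, 6 were at least 2-fold higher in the incisor sum and 2 lower, Gins2 and the licensing gene Cdc6, which was too low to be measured. Their median log2 ratio was 0.72 over 15 genes, 1.70 without molar 1 and 0.21 without incisor 32. Molar 1 gave 82.7% of the Gins2 reads. Without incisor 32, 3 S genes were past 2-fold. In the macrophages alone, 8 of 14 measured G2 and M genes were at least 2-fold higher in incisor and 3 lower, against 31.5% and 25.2% of all 8668 measured genes, with incisor 26 giving 16351 of the 20801 incisor reads. Without the 9 called cells, 3 G2 and M genes were left to measure, 1 at least 2-fold higher in incisor and 2 lower, where 29.1% and 27.1% of all 9620 were, and the medians of both lists were lower in incisor, at -2.30 for G2 and M and -0.90 for S genes.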

How the data were processed

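Smart-Seq2 libraries of polyA RNA were made from single sorted cells, per the labels' protocols. The table the authors deposited holds unscaled counts of reads, 1 row a gene symbol and 1 column a cell, with no molecular identifiers. Per the submitters' processing notes, mm10, Seurat (3), HISAT2 (2) and Trim Galore were used. How reads were counted, with which annotation, strand setting and cell filters, is not given in the sources used here. In the table, 64 columns match a labelled cell by name, and 124 others were not used. Gene positions and exon lengths came from GENCODE M21, on the assembly of mm10.

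CPM, exact Poisson and Clopper-Pearson intervals (95% level), seeded thinning and log2 ratios of summed CPM (pseudocount 1, minimum mean 5 CPM) were computed with SciPy 1.17.1, pandas 2.3.3 and NumPy 2.4.6 under Python 3.11.15 (figures: matplotlib 3.10.9), and checked on simulated data. A count of 0 was set at 3 counts over the group for folds and limits. The genes, lists, cuts and alternatives were chosen with earlier results of these data known, and the lead per kilobase, values without a leading cell and the promoter motifs after the values were seen. Named are all 35 genes, the 3 genes with the most counts (and those read in all called cells) of each other list of cycle genes and of macrophage state genes (lists of cell type markers are mostly given as sums), and the 10 genes by share difference (at least 5 CPM over these cells, predicted genes left out); other named genes of the lists were chosen after their values were seen. No doublet caller was run on 64 cells sorted one by one. Without a strand setting, reads of Mcm7, Gins2, Ccna2, Ube2c, Cdc20 and Nusap1 cannot be told from those of exons that overlap them, and Pcna, Tyms, Ccnb1 and Ccnb2 have named pseudogenes.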

Additional observations from a re-analysis of the deposited data

Results flagged for a closer look

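In the 6 mural-like incisor cells, incisor 32 stood apart from the others with 14 S genes read and 9131 CPM of S genes, and incisor 10 with 18 G2 and M genes read and 15280 CPM. In the 9 mural-like molar cells, molar 1 stood apart with 7 S genes read and 3909 CPM of S genes, and molar 4 with 21.7 CPM of G2 and M genes, from Ccnb1 alone. Each lay further from its nearest neighbour than Dixon's 95% critical share of the group's range. Of 8 such groups 7 held such a cell. The groups share cells and reads, and many of these values sit at or near 0. Incisor 10 and incisor 32 were also called cycling from these same reads. The count therefore cannot be set against a chance rate and serves as a description. By single genes, 30 of 32 members with a read in the incisor cells and 7 of 9 in the molar cells had such a cell. A gene read in only 1 cell of a group, such as Aurkb, Plk1 or Cdc20, meets this rule whatever its level. No share over all genes was computed, so these counts say nothing particular about the members.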

How the results depend on the processing

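No paired analysis was possible because no test was made and the shared cell numbers only name cells. With 12 of the 16 S or 15 of the 19 G2 and M genes asked for, 5 cells were called cycling, 3 of them macrophages, with 2 by S alone and 0 by both. With at least 5 reads, or at least 5 CPM, a gene, 8 cells were called (without molar 18) and 1 met both cuts. With 6 of 16 or 7 of 19, 12 cells were called (adding molar 1, incisor 19 and incisor 20), 4 met both and 1 met G2 and M alone. The median log2 ratio of the G2 and M genes was 2.12 with cells weighted equally, 2.04 with a pseudocount of 10 CPM, 1.19 in macrophages and -2.30 without the called cells, where that of the S genes was -0.90; the cause of the moves was not tested beyond the cells named. Without incisor cells 10, 26 and 32, an alternative chosen after seeing the data, as was leaving out cells for counts of genes past 2-fold, 2 G2 and M and 2 S genes were past 2-fold. Leaving out each cell in turn gave medians of 0.21 to 1.70 for S and 1.44 to 3.31 for G2 and M genes, with 3 to 9 and 8 to 16 genes past 2-fold. In macrophages it gave 641 to 770 CPM of S and 248 (without incisor 26) to 479 CPM of G2 and M genes, and in mural-like cells 766 to 1551 and 48.7 to 1239 CPM. The counts of other S genes (14 to 19), other G2 and M genes (18 to 25) and G1 genes (6 to 8) stayed within 1.5 times. A lower and a higher Rgs5 cut, and asking for C1qa, which set the class and not the call, left 7 macrophages and 2 mural-like cells called. A zero in a cell cannot be told from a missed molecule at this depth.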
